A study of Mus musculus with 23 samples.

Results

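The integrated stress response was followed through 10 of its genes, *Atf4*, *Ddit3*, *Atf5*, *Trib3*, *Chac1*, *Asns*, *Psat1*, *Phgdh*, *Mthfd2* and *Shmt2*, which were chosen by name as members of the ATF4 pathway. They are 10 of the 37310 genes counted by RNA-seq in mouse embryonic stem cells (ESCs), and all 10 were among the 14346 genes that exceeded 1 CPM (counts-per-million, after scaling for library size) in 3 or more libraries. RNA was measured in E14 cells after 48 h of treatment, with 3 biological replicates in each of 3 groups. *Zbtb11* KO cells were Zbtb11lox/lox Rosa26 ERt2-Cre cells given 250 nM 4-hydroxytamoxifen (4OHT), which activates the ERt2-Cre recombinase and removes exon 3 of *Zbtb11*. The EtOH control was the same cell line with the carrier ethanol, and the 4OHT control was Zbtb11WT/WT Rosa26WT cells, without the recombinase, given 4OHT. The floxed cells are a single engineered line. From the EtOH to the 4OHT control, genotype, line and treatment all change at once and cannot be told apart. All cells were grown without feeders in serum and LIF, in medium with glutamine and non-essential amino acids. Binding of Zbtb11, a zinc finger protein, was measured by ChIP-seq in 4 libraries with an antibody to Zbtb11 in E14 WT cells and in 3 libraries with an antibody to FLAG in Zbtb11FLAG/FLAG E14 cells.

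Kinases that sense different stresses phosphorylate the initiation factor eIF2α, which lowers general translation while the mRNA of the bZIP activator ATF4 is translated more. ATF4 and its partners then raise transcription of genes for amino acid synthesis and uptake, serine and folate metabolism, tRNA charging and feedback control. When mitochondria fail, the protease OMA1 cleaves DELE1, which activates the kinase HRI and so feeds into the same response. Control of ATF4 itself is largely at translation, which RNA-seq does not measure.

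ATF4 binds composite sites shared with C/EBP proteins, whose core reads TGATGCAA. In the annotation used for counting, on the mm9 build of the mouse genome, this core lay within 500 bases of the gene start in 3 of the 10 genes (*Ddit3*, *Chac1* and *Shmt2*), against 1.69% of the promoters of all tested genes, with both strands searched. With the sixth base left free, TGATGNAA, which includes the first motif, was found in 6 of the 10 genes against 7.54%. The 6 sites are shown because they match TGATGNAA, and binding of ATF4 to them was not measured. Each is printed 5′ to 3′ on the strand that reads TGATG, as 30 bases of mm9 with the core in capitals.
*Ddit3*, chr10:126727537-126727566, minus strand: gggggcggggaTGATGCAAtgtttggcaac
*Chac1*, chr2:119176774-119176803, minus strand: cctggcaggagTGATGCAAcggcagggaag
*Shmt2*, chr10:126959002-126959031, minus strand: agctatggagaTGATGCAAccgagcctcag
*Trib3*, chr2:152169764-152169793, plus strand: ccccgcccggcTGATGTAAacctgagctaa
*Asns*, chr6:7643214-7643243, minus strand: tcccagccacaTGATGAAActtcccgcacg
*Mthfd2*, chr6:83267163-83267192, minus strand: ttgctgcagtcTGATGAAAtctgtgagccg
The cores of *Ddit3*, *Chac1* and *Trib3* began 282, 180 and 14 bases upstream of the gene start, and those of *Asns*, *Mthfd2* and *Shmt2* 22, 419 and 471 bases downstream. The sites of *Asns* and *Trib3* overlapped an exon of the gene itself. In a narrower window, from 250 bases upstream to 50 downstream, TGATGCAA was left in 1 gene, *Chac1* (0.599% of promoters), and TGATGNAA in 3 (2.33%). The motif CCGGAAG, recognised by ETS family factors such as GABP, occurred within 500 bases of the start of 4 of the 10 genes, against 26.4% of promoters.

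The libraries held 14301457 to 23876604 reads on genes, with 25.3 to 31.6% of reads in no annotated gene. The 7 ESC markers examined, among them *Pou5f1*, *Nanog* and *Sox2*, summed to between 3389 and 4233 CPM in a library. Of 11 markers of differentiated or feeder cells, 10 were in the annotation, and they summed to between 35.5 and 42.1 CPM, with *Fgf5* at 0 reads in an EtOH control library. *Zbtb11* has no gene entry of its own in the annotation used for counting, so its loss could not be followed in the counts. Libraries with the same replicate number resembled each other across groups, although replicates 2 and 3 were not clearly told apart. Each test is therefore given without and with the replicate number as a block.

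Per kilobase of exon, the genes spanned a wide range in the EtOH control. *Asns*, the enzyme that makes asparagine, was highest at 171 ± 11.4 RPKM (SD, n = 3), which is CPM divided by exon length in kilobases. *Atf4* followed at 126 ± 18.5 RPKM, *Psat1* at 118 ± 8.79 and *Shmt2* at 96.2 ± 10.6. The mRNAs of *Atf4* and of these enzymes were thus present without deletion of *Zbtb11*. How their levels rank among all tested genes was not examined. *Phgdh* stood at 56.6 ± 2.00 RPKM and *Mthfd2* at 41.3 ± 7.32. *Trib3* (22.4 ± 7.03), *Chac1* (17.7 ± 6.94), *Atf5* (8.23 ± 1.64) and *Ddit3* (6.42 ± 3.06 RPKM) closed the order. Among neighbours in this order, the means ± SD overlapped for *Atf4* and *Psat1*, for *Trib3* and *Chac1*, and for *Atf5* and *Ddit3*.

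Between *Zbtb11* KO cells and the EtOH control, which differ by the 4OHT that triggers deletion, the mRNA of 9 of the 10 genes passed no test of a difference. *Atf5* stood higher by a fitted factor of 1.32, and this passed the test with the replicate block but not without it. In RNA from whole cultures, fewer cells expressing a gene and less RNA per cell cannot be told apart. By edgeR's quasi-likelihood test without the block, 0 of the 10 genes passed an adjusted p of 0.05, against 0.899% of all tested genes. None had an unadjusted p under 0.05, and DESeq2 likewise called 0 of 10, with 0 under an unadjusted p of 0.05, against 1.25% of all tested genes. With the block, 1 of 10 passed, upwards, against 2.25% of all tested genes in either direction and 0.46% upwards. In that fit 2 genes had an unadjusted edgeR p under 0.05, *Atf5* and, downwards, *Mthfd2*. Without replicate 1, which stood apart in all groups, 0 of 10 passed without the block (1.5% of all tested genes) and with it (2.27%), and in both *Atf5* alone had an unadjusted p under 0.05. On the log2 scale, the median fold change of the 10 was -0.05 both without and with the block, and that over all tested genes was -0.00065 without it. The libraries of KO cells and EtOH control overlapped in all 10 genes, while 7.21% of all tested genes did not overlap.

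**Figure D1:**
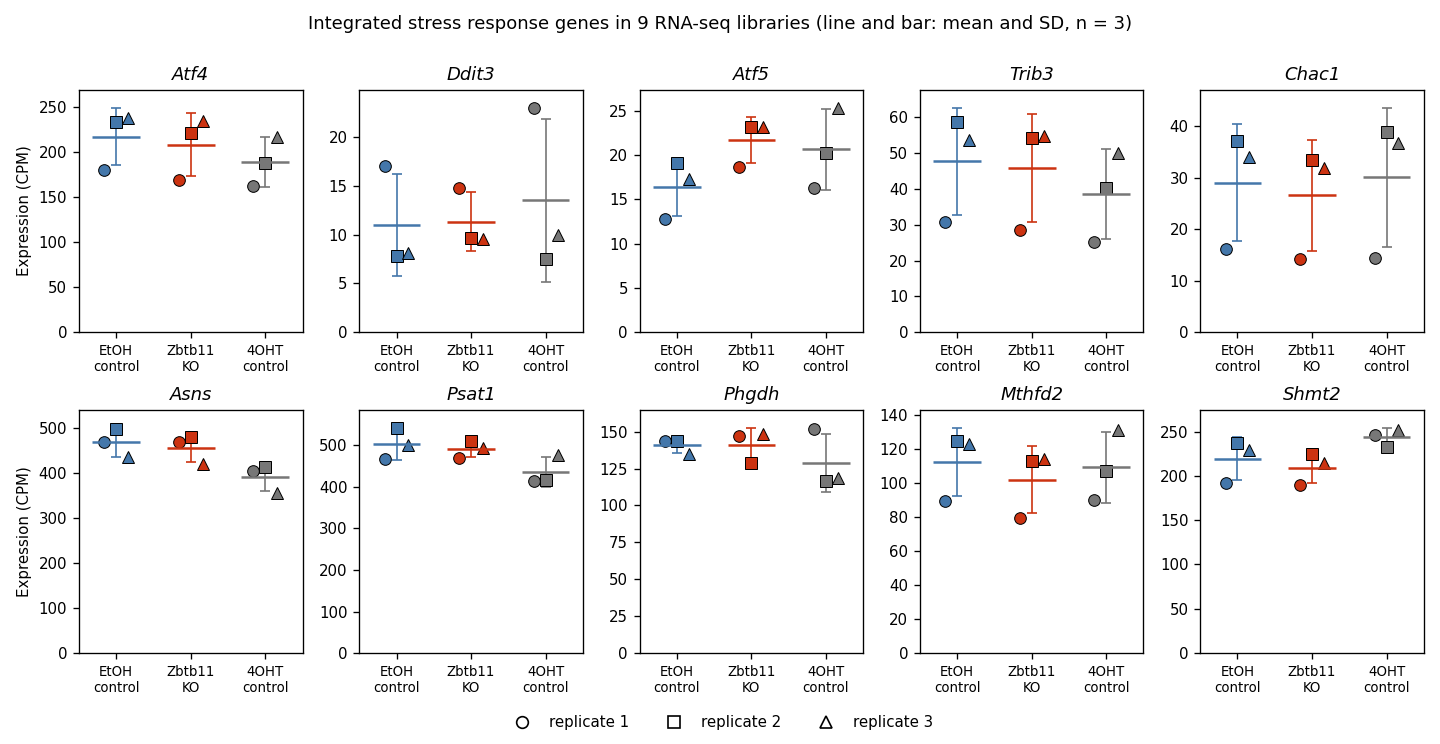
Expression of the 10 genes in CPM (vertical axes, starting at 0) in the 9 RNA-seq libraries, by group on the horizontal axis, with replicate numbers as symbols and the mean and SD (n = 3) as line and bar. Replicate 1 lies below replicates 2 and 3 in every group for Atf4, Trib3, Chac1 and Mthfd2 and above them for Ddit3, and KO cells overlap the EtOH control for all 10 genes.

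Among the bZIP factors, *Atf4* (chr15:80085614-80087970) was measured at 180.0, 233 and 238 CPM in EtOH control replicates 1, 2 and 3. It was at 168, 221 and 234 CPM in the KO replicates and at 162, 188 and 216 CPM in the 4OHT control. The KO value was slightly below the EtOH value under each replicate number, and the groups overlapped widely. With the block, the log2 fold change KO minus EtOH control was -0.06 (SE 0.05, 95% interval -0.17 to 0.05, edgeR adjusted p = 0.764). *Ddit3* (chr10:126727830-126733344) encodes CHOP, a bZIP factor linked to cell death under prolonged stress. Its levels were 17.05, 7.79 and 8.14 CPM in the EtOH control, 14.8, 9.60 and 9.59 CPM in KO cells and 22.99, 7.54 and 9.95 CPM in the 4OHT control. In all groups replicate 1 was the highest, and the 3 groups overlapped. The log2 fold change KO minus EtOH control was 0.09 with the block (95% interval -0.19 to 0.37), the widest interval of the 10 genes. *Ddit3* has exons of *Mars* on the opposite strand, and whether the reads were counted by strand is not given in the sources used here.

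*Atf5* (chr7:52067627-52072028), a bZIP factor that is translated under the same control as ATF4 and is linked to the mitochondrial unfolded protein response, was the exception. It was at 12.8, 19.1 and 17.3 CPM in EtOH control replicates 1, 2 and 3. The KO replicates stood at 18.7, 23.2 and 23.2 CPM and the 4OHT control at 16.3, 20.2 and 25.4 CPM. KO cells were higher than the EtOH control under every replicate number, by 0.55, 0.28 and 0.42 on the log2 scale, although KO replicate 1 lay below EtOH control replicate 2. The log2 fold change was 0.40 without the block (SE 0.20, 95% interval -0.04 to 0.84, edgeR adjusted p = 1, unadjusted p = 0.0694). With the block it was 0.40 (SE 0.09, 95% interval 0.21 to 0.59, edgeR adjusted p = 0.0146). With the block, leaving out replicate 1, 2 or 3 in all groups gave 0.34, 0.48 and 0.39, with edgeR adjusted p values of 0.127, 0.0549 and 0.0623, so the call was lost without any one of the replicate numbers. The 4OHT control, which keeps *Zbtb11*, was also higher than the EtOH control with the block, by 0.33 (SE 0.09, edgeR adjusted p = 0.00892), and KO cells minus 4OHT control gave 0.07 (95% interval -0.11 to 0.26). These contrasts share libraries, and whether the difference followed 4OHT or *Zbtb11* was not tested. *Atf5* overlaps exons of *Nup62* and *Il4i1* on the opposite strand, whose log2 fold changes KO minus EtOH control with the block were -0.10 and -0.11.

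Of the feedback and glutathione genes, *Trib3* (chr2:152163158-152169768) encodes a pseudokinase that restrains ATF4 and CHOP. It was at 30.7, 58.7 and 53.7 CPM in the EtOH control, 28.5, 54.3 and 54.6 CPM in KO cells and 25.3, 40.3 and 50.1 CPM in the 4OHT control. *Chac1* (chr2:119176965-119180117), whose product degrades glutathione, was at 16.1, 37.1 and 34.0 CPM in the EtOH control, 14.1, 33.5 and 31.9 CPM in KO cells and 14.5, 38.9 and 36.7 CPM in the 4OHT control. Replicate 1 was the lowest in every group for both genes, and the differences between KO cells and EtOH control were small beside it. With the block, the log2 fold changes KO minus EtOH control were -0.06 for *Trib3* (95% interval -0.22 to 0.09) and -0.13 for *Chac1* (95% interval -0.28 to 0.01). Without the block, the interval of *Chac1* ran from -1.15 to 0.89.

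*Asns*, *Psat1* and *Phgdh* are enzymes of amino acid synthesis. *Asns* (chr6:7625169-7643254) was at 468, 497 and 435 CPM in the EtOH control, at 467, 478 and 419 CPM in KO cells and at 404, 413 and 356 CPM in the 4OHT control. Within a replicate number KO cells and EtOH control differed by at most 0.06 on the log2 scale, and the blocked 95% interval was -0.14 to 0.07. *Psat1* (chr19:15979168-16021827), an enzyme of serine synthesis, was at 466, 541 and 502 CPM in the EtOH control, 471, 512 and 494 CPM in KO cells and 415, 416 and 478 CPM in the 4OHT control (blocked 95% interval KO minus EtOH control -0.15 to 0.09). *Phgdh* (chr3:98117093-98143913), which catalyses the step that commits carbon to serine, was at 144, 143 and 135 CPM in the EtOH control and at 147, 129 and 148 CPM in KO cells (blocked 95% interval -0.14 to 0.14). It was at 152, 116 and 119 CPM in the 4OHT control. KO cells overlapped the EtOH control for all of these enzymes. *Phgdh* shares stretches of at least 100 near-identical bases with 9 other annotated genes, the longest of 289 bases, so its count could be affected. *Psat1* and *Shmt2* each share such a stretch with 1 other gene, of 106 and 100 bases.

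*Mthfd2* and *Shmt2* encode mitochondrial enzymes of folate metabolism, which are known to respond to mitochondrial dysfunction through ATF4. *Mthfd2* (chr6:83255685-83267600) was at 89.4, 125 and 123 CPM in the EtOH control, 79.3, 113 and 114 CPM in KO cells and 90.0, 107 and 132 CPM in the 4OHT control. It was lower in KO cells than in the EtOH control under every replicate number. With the block, its log2 fold change was -0.14 (SE 0.06, 95% interval -0.27 to -0.01) with an edgeR adjusted p of 0.421, which did not pass. *Shmt2* (chr10:126954195-126959491) was at 192, 237 and 229 CPM in the EtOH control, 190, 224 and 214 CPM in KO cells and 247, 233 and 252 CPM in the 4OHT control. Its blocked 95% interval KO minus EtOH control was -0.20 to 0.06, and the libraries of these 2 groups overlapped. For this pair of mitochondrial enzymes, no rise above 0.06 on the log2 scale lay within the blocked 95% intervals.

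**Figure D2:**
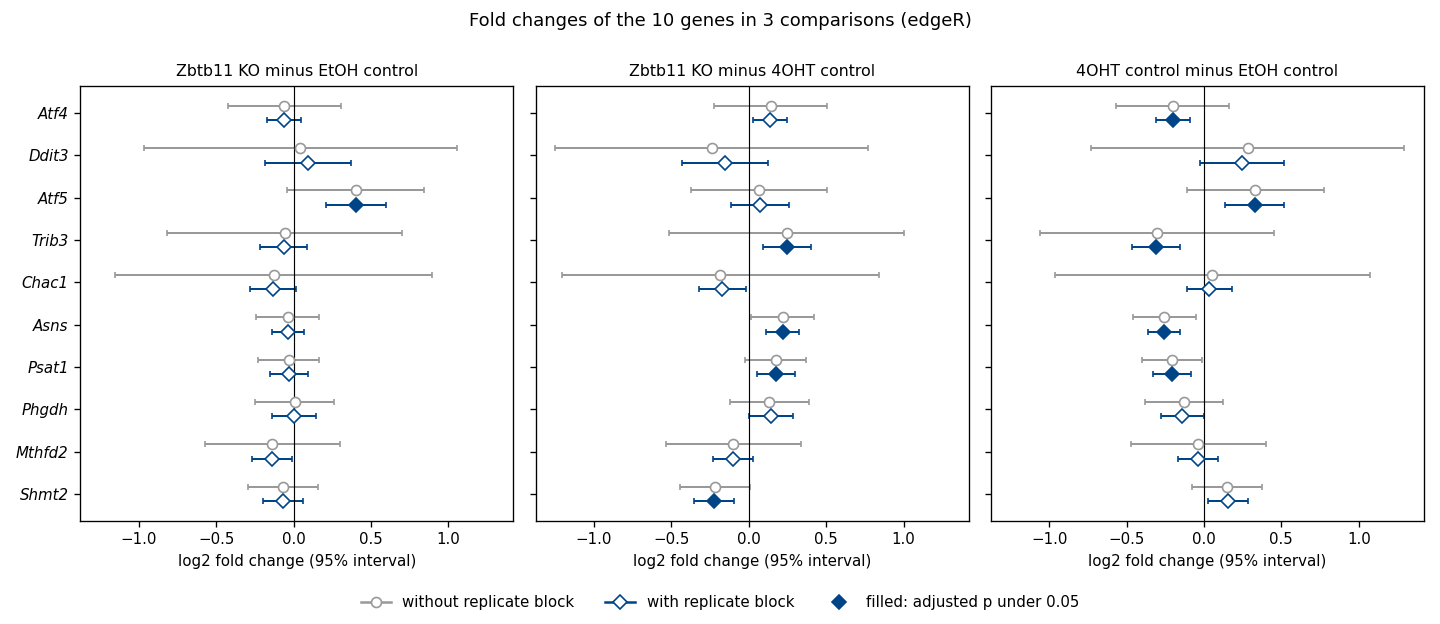
Log2 fold changes of the 10 genes with 95% intervals (horizontal axis) in 3 comparisons, from edgeR without (circles) and with (diamonds) the replicate block, where filled symbols passed an adjusted p of 0.05. Estimates differ little between the fits, while intervals are narrower with the block, and Atf5 is the filled symbol between KO cells and the EtOH control.

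With the replicate block, more of the 10 genes differed between the 2 groups that both received 4OHT, as did more of all tested genes. Between these groups the state of *Zbtb11*, the recombinase and the cell line differ together and cannot be told apart. Comparing KO cells with the 4OHT control, 0 of 10 genes passed without the block, against 6.45% of all tested genes. *Asns* alone had an unadjusted p under 0.05, both in edgeR and in DESeq2, and DESeq2 called 0, against 10.2% of all tested genes. With the block, 3 genes rose and 1 fell, against 34.9% of all tested genes in either direction, so a share of this size was close to the background. *Asns* was higher in KO cells by 0.22 (SE 0.05, edgeR adjusted p = 0.00195), *Psat1* by 0.17 (SE 0.06, adjusted p = 0.026) and *Trib3* by 0.24 (SE 0.07, adjusted p = 0.0145). *Shmt2* was lower by -0.22 (SE 0.06, edgeR adjusted p = 0.00855). *Atf4* stood at 0.14 with an adjusted p of 0.0501, just outside the threshold. KO libraries lay above all 4OHT control libraries for *Asns* and below them for *Shmt2*, while 22.9% of all tested genes showed groups that did not overlap. *Ndufa4l2*, which has exons opposite *Shmt2*, also stood lower, by -0.93 with the block (adjusted p = 6.41e-05), and its part in the *Shmt2* counts was not tested. Without replicate 1, 0 of 10 genes passed without the block, against 18.7% of all tested genes, although 6 had an unadjusted p under 0.05 in edgeR. With the block 5 passed, against 29.5%. Markers of cell state moved in the same contrast. With the block, 1 of 7 ESC markers was higher in KO cells (*Nanog*, by 0.29) and 5 were lower (*Dppa5a*, at -0.58, the most), and of 7 tested markers of differentiated or feeder cells 2 were higher and 1 lower. Their part in the differences was not tested.

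Comparing the 4OHT control with the EtOH control, 0 of 10 genes passed without the block, against 4.06% of all tested genes. Here *Asns* and *Psat1* had an unadjusted p under 0.05, in edgeR and in DESeq2, and DESeq2 called 0, against 8.27% of all tested genes. With the block, 4 genes were lower in the 4OHT control and 1 was higher, against 33.6% of all tested genes. *Asns* fell by 0.26 on the log2 scale (SE 0.05, edgeR adjusted p = 0.000554) and was lower in all 3 replicate numbers, with every 4OHT control library below every EtOH control library (21.7% of all tested genes had groups that did not overlap). *Trib3* fell by 0.31 (SE 0.07, adjusted p = 0.00291), *Psat1* by 0.21 (SE 0.06, adjusted p = 0.0106) and *Atf4* by 0.20 (SE 0.05, adjusted p = 0.00594). *Atf5* rose as given above, so the 5 genes did not move in the same direction. This contrast shares its EtOH libraries with that of the KO cells and its 4OHT libraries with the contrast before, and the 3 sets of values are therefore not independent. Without replicate 1 and without the block, *Phgdh* and *Trib3* passed, both downwards, against 17.1% of all tested genes. Without replicate 1 but with the block, 6 of 10 passed, against 27.6%. Of the ESC markers 4 of 7 were higher (*Dppa5a* by 0.65) and 1 lower (*Nanog*, at -0.36) in the 4OHT control with the block. Of 7 tested markers of differentiated or feeder cells 2 passed with the block. In edgeR, 4 of these 7 had an unadjusted p under 0.05 (*Gata4*, *Pax6*, *Col1a2* and *Thy1*). *Col1a2*, a collagen gene, was lower, at -1.90, while *Gata4* was higher under every replicate number, by 0.56, 0.23 and 0.31. Their part in the differences was not tested.

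For several of these genes the replicate number outweighed the treatment. The 3 replicate 1 libraries lay below the other 6 for *Atf4*, *Trib3*, *Chac1* and *Mthfd2* and above them for *Ddit3*. Such a separation of replicate 1 was found for 35.8% of all tested genes, so 5 of 10 is near the background. The mean of replicate 1 minus that of replicates 2 and 3 was -1.24 on the log2 scale for *Chac1*, -0.88 for *Trib3*, -0.46 for *Mthfd2* and -0.38 for *Atf4*, and 1.04 for *Ddit3*. *Ddit3* thus moved against *Atf4*, *Trib3*, *Chac1* and *Mthfd2* across replicate numbers. Replicate 1 overlapped the others for *Atf5*, *Asns*, *Psat1*, *Phgdh* and *Shmt2*. The methods of the study describe a replicate that stood apart in every group, consider a technical origin and repeat the test without it. What was done differently for it is not given in the sources used here.

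The spread over the 9 libraries was largest for *Chac1* (SD of log2 CPM 0.63), followed by *Ddit3* (0.56) and *Trib3* (0.47), and smallest for *Psat1* (0.13). A larger SD than that of *Chac1* was found in 5.62% of all tested genes. The gene whose pattern was most like that of *Chac1* was *Itga9*, an integrin subunit, with a root mean square difference of 0.07 in log2 CPM over the 9 libraries after centring. *Zdbf2* and *Hist2h2ac* came next. For *Ddit3* the nearest genes were *Sspo*, *Tbx2* and *P4ha2*, of which *Sspo* and *Tbx2* had under 2 CPM in every library. Both exceeded 1 CPM in the replicate 1 libraries alone and so entered the test only because they were high there. *P4ha2*, a prolyl hydroxylase subunit for collagen, differed by 0.14 and was at 43.1, 17.5 and 20.2 CPM in the EtOH control. For *Trib3* the nearest were *Jmjd1c* (0.08), *Imp4* and *Trim71*. All 9 nearest genes shared the step between replicate 1 and the other replicates, which makes up most of these patterns. For *Sspo* and *Tbx2* the expression filter fixed that step in advance, so their likeness to *Ddit3* is not a result.

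The wider pathway was examined in 8 lists with 90 genes, of which 89 were tested. Between KO cells and the EtOH control, 0 of the 89 passed without the block, and none had an unadjusted p under 0.05 in edgeR or in DESeq2. With the block, 1 of 89 passed, downwards, against 2.25% of all tested genes, and the 89 had a median of -0.01 on the log2 scale. By list, 0 of 8 eIF2α kinases and relay genes passed with the block, 0 of 10 genes of eIF2, its exchange factor eIF2B and its phosphatase, 0 of 8 bZIP partners and stress factors, 0 of 13 other amino acid and folate enzymes, 0 of 9 amino acid transporters, 0 of 10 secreted and feedback targets and 0 of 12 genes of the other arms of the ER unfolded protein response. The transporters stood below 0 in 8 of 9 genes, with a median of -0.08, and the feedback targets in 7 of 10, with a median of -0.10. Of the 89 genes together 37 stood above 0, and the median over all tested genes was 0.0011. Whether these 2 lists differ from the others was not tested.

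The gene that passed was *Wars*, the cytosolic tryptophanyl-tRNA synthetase, 1 of 19 synthetases tested. *Wars* was at 104, 148 and 140.4 CPM in the EtOH control, 85.5, 115 and 102 CPM in KO cells and 93.2, 130 and 140.3 CPM in the 4OHT control. It was lower in KO cells than in either control under every replicate number. With the block it fell by 0.37 on the log2 scale against the EtOH control (SE 0.06, edgeR adjusted p = 0.000384) and by 0.26 against the 4OHT control (SE 0.06, adjusted p = 0.00237). Without the block the difference to the EtOH control was -0.38 with an adjusted p of 1. Without the block and without replicate 1, 1 of the 89 genes passed, downwards, and *Wars* and *Vegfa* alone had an unadjusted edgeR p under 0.05. Without replicate 2 or 3, 0 of the 89 passed in that fit. With the block and without replicate 1, 2 or 3, the adjusted p of *Wars* was 0.000426, 0.0354 and 0.00481, so the blocked call stood without each of them. The other 18 synthetases had no call in this comparison, so the change was not one of the list as a whole.

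**Figure D3:**
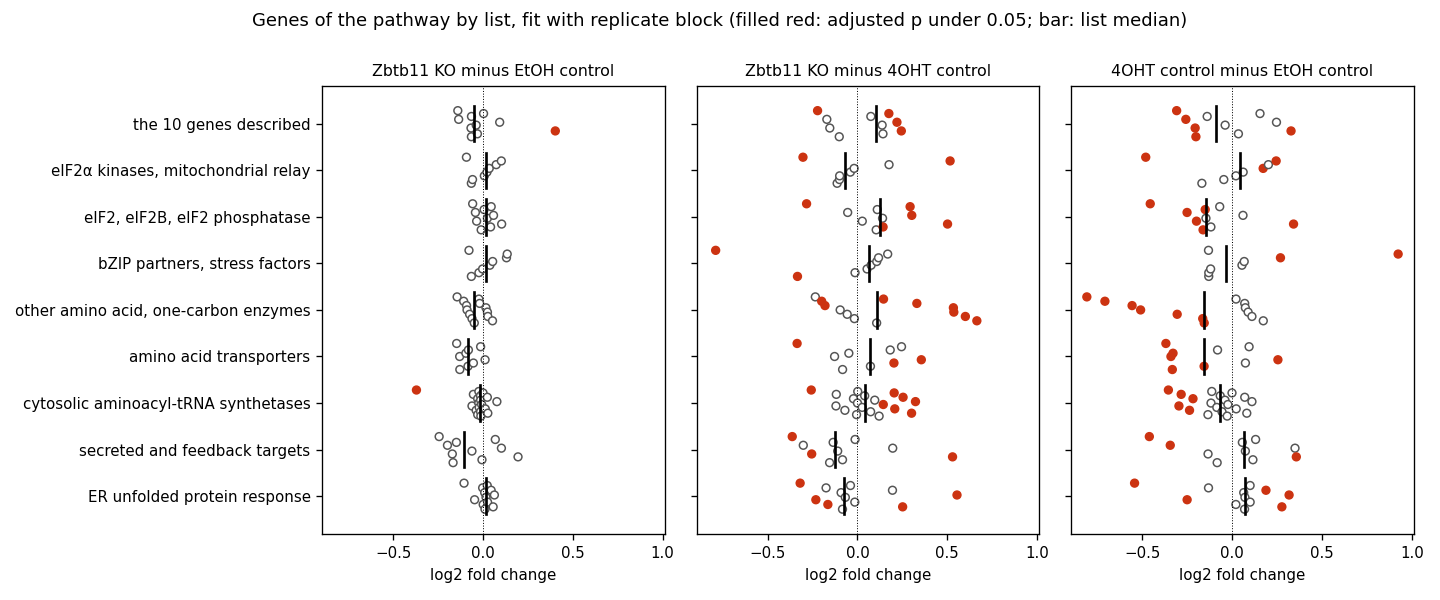
Log2 fold changes (horizontal axis) of the 10 genes and of the 89 other tested genes in 8 lists (vertical axis) in 3 comparisons, from the fit with the replicate block, with the list median as a bar and calls at an adjusted p of 0.05 in red. Between KO cells and the EtOH control 2 genes are called, Atf5 and Wars, while 39 and 42 genes are called in the comparisons with the 4OHT control.

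Against the 4OHT control, the lists moved in both directions. Without the block, 4 of 89 genes were higher in KO cells than in the 4OHT control, against 2.73% of all tested genes, and 3 of 89 were lower in the 4OHT control than in the EtOH control, against 2.01%. The genes are named here after their values were seen. *Impact*, an inhibitor of the kinase GCN2, *Cbs*, an enzyme of cysteine synthesis, and *Edem1*, a factor of ER-associated degradation, were in both counts, and *Psph*, which completes serine synthesis, in the first. *Impact* was at 245, 272 and 253 CPM in the EtOH control, 266, 269 and 254 CPM in KO cells and 179, 178 and 195 CPM in the 4OHT control. Its KO libraries overlapped the EtOH control and lay above the 4OHT control, with a log2 fold change KO minus 4OHT control of 0.52 (SE 0.07, edgeR adjusted p = 0.0033). With the block, KO cells had 22 of the 89 genes higher and 13 lower than the 4OHT control, and the 4OHT control had 10 higher and 27 lower than the EtOH control. The share of the first, 35 of 89, stood beside 34.9% of all tested genes, and that of the second, 37 of 89, beside 33.6%.

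Peaks of Zbtb11 were then sought at the promoters, defined as 2 kb upstream to 500 bases downstream of the gene start. A table of 7500 consensus peaks gives read coverage in the 4 Zbtb11 and 3 FLAG-Zbtb11 libraries, normalised between libraries by the authors. At 0 of the 10 promoters was there a consensus peak, against 28.1% of the promoters of all tested genes. The count was also 0 of 10, again against 28.1%, within 1 kb on each side of the start and in the full list of 8957 Zbtb11 peaks (33.0% of tested genes). Within 5 kb on each side, 2 genes had a peak, against 32.3% of tested genes, *Chac1* and *Shmt2*, both downstream of the start and both below the median coverage of 71.3. In the full list of 9350 FLAG-Zbtb11 peaks, 2 promoters had one, against 33.5% of tested genes, namely *Atf4* (chr15:80085080-80086990) and *Asns* (chr6:7642059-7643368). These peaks were in neither the Zbtb11 list nor the list of peaks from FLAG ChIP in untagged cells, which marks 0.216% of tested genes, so they rest on the FLAG antibody. The nearest consensus peak was centred 9169 bases downstream of the *Atf4* start, and 438836 and 737362 bases from the starts of *Phgdh* and *Asns*.

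*Psat1* depended on the start that was used. Its annotated gene start belongs to a longer transcript, 22278 bases upstream of the start in RefSeq, which was placed in mm9 at chr19:15999549 by an exact match of its promoter sequence. When every annotated transcript start was taken, a choice made after the data were examined, *Psat1* was the 1 gene of 10 with a consensus peak, against 31.1% of tested genes. The peak at chr19:15998506-15999706 was centred 443 bases downstream of this RefSeq start and 6 bases downstream of a second RefSeq start. Its coverage was 34.5, 33.7, 46.6 and 39.0 in the Zbtb11 libraries and 68.1, 27.8 and 59.3 in the FLAG-Zbtb11 libraries, from 21 to 77 and from 19 to 142 reads. With a mean of 38.4 ± 5.94 (SD, n = 4) it ranked 5784 of 7500 peaks. From 250 bases upstream to 50 downstream, the motif CCGGAAG occurred at the second RefSeq start and not at the first. The 150 bases upstream of the first RefSeq start lie within this peak and overlap no annotated exon. They are shown because they are the promoter sequence of the 10 genes at which a peak was listed with both antibodies. They are printed 5′ to 3′ on the minus strand of mm9, from chr19:15999550-15999699, and have 55.3% G and C and 9 CpG dinucleotides.
*Psat1*: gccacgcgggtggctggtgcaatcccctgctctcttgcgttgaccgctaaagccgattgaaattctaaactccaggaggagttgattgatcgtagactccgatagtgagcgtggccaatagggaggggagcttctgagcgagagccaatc

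Other genes of the pathway did have promoter peaks. The list with the most was that of the tRNA synthetases, with 10 of 19. Of the 8 kinases and relay genes 4 had a consensus peak, *Oma1*, *Dele1* (listed as 0610009O20Rik), *Eif2ak1*, which encodes HRI, and *Gcn1l1*, whose product is needed for GCN2 activity. Of all 89 genes 29 (32.6%) had one, beside 28.1% of tested genes. Coverage in the Zbtb11 libraries was 44.5, 36.9, 52.7 and 40.8 at *Oma1*, and 23.3, 19.2, 27.9 and 19.5 at *Dele1*. It was 48.9, 73.7, 75.1 and 72.7 at *Eif2ak1* and 78.9, 81.8, 116 and 85.2 at *Gcn1l1*. The means, 43.7 ± 6.74, 22.5 ± 4.04, 67.6 ± 12.5 and 90.4 ± 17.04 (SD, n = 4), ranked 5336, 6977, 3922 and 3022 of 7500, where the median of all peaks was 71.3. At *Eif2ak1* 3 of the 4 libraries, and at *Gcn1l1* all 4, were above that median. In the FLAG-Zbtb11 libraries the means at these peaks, in the same order, were 73.9 ± 12.3, 57.3 ± 8.70, 61.1 ± 13.6 and 91.1 ± 23.9 (SD, n = 3). The median of all peaks was 65.6 there. At *Oma1* and *Dele1* the FLAG-Zbtb11 mean thus stood above the Zbtb11 mean, and at *Oma1* also above the FLAG-Zbtb11 median. The *Dele1* peak also lay at the promoter of *1700086O06Rik*. In KO cells none of the 4 mRNAs passed, with blocked 95% intervals KO minus EtOH control of -0.08 to 0.28 for *Oma1*, -0.06 to 0.20 for *Dele1*, -0.14 to 0.16 for *Eif2ak1* and -0.13 to 0.17 for *Gcn1l1*.

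Coverage over 309, the upper quartile plus 1.5 interquartile ranges, marks what the study calls Zbtb11-high peaks. Of the 29 promoter peaks 4 were of this kind (13.8%), at *Wars*, *Psph*, *Dars* and *Eif2s3x*, against 20.3% of tested genes with a promoter peak. *Wars* had the strongest, with 666, 898, 572 and 1082 in the Zbtb11 libraries and 907, 835 and 443 in the FLAG-Zbtb11 libraries, a mean of 804 ± 230.4 (SD, n = 4) that ranked 88 of 7500. *Psph*, at 599, 880.1, 502 and 977 in the Zbtb11 libraries, ranked 140. The *Wars* peak also lay at the promoter of *Wdr25*, and the *Psph* peak at those of *Cct6a* and *SNORA22*. The coverage of these peaks can therefore not be assigned to a single gene. The mRNA of *Psph* was at 39.5, 44.5 and 41.9 CPM in the EtOH control and 41.6, 42.1 and 44.4 CPM in KO cells, and gave a blocked log2 fold change of 0.03 (SE 0.06, edgeR adjusted p = 0.94). Of the 4 genes, *Wars* was the one that passed between KO cells and the EtOH control.

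**Figure D4:**
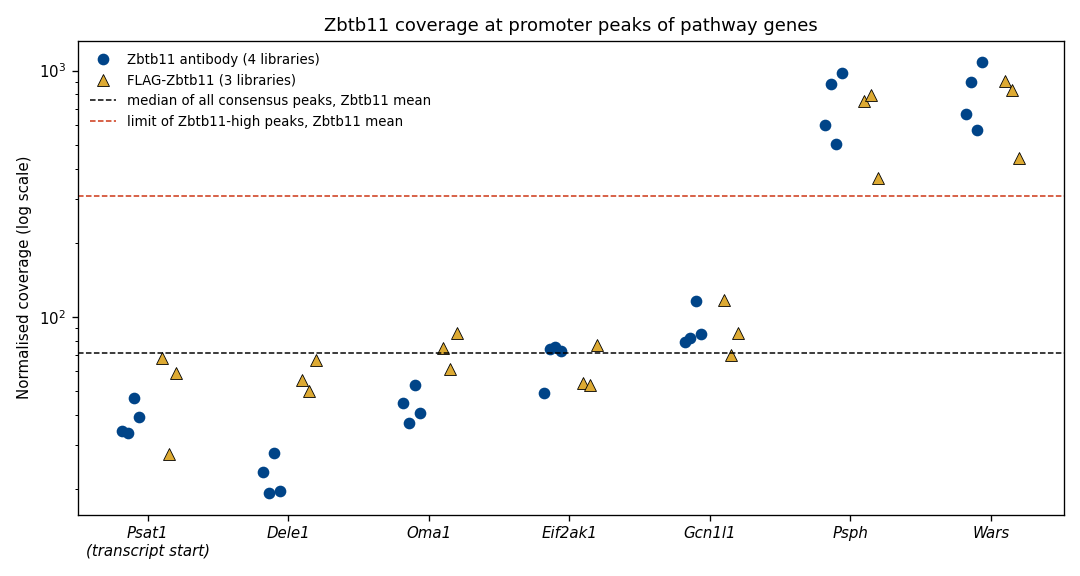
Normalised ChIP coverage (vertical axis, log scale) in each of the 4 Zbtb11 and 3 FLAG-Zbtb11 libraries at the peak over a transcript start of Psat1 and at promoter peaks of 6 other genes of the pathway (horizontal axis). The Zbtb11 antibody libraries lie below the dashed median of 71.3 at Psat1, Dele1 and Oma1, and all libraries lie above the limit of 309 at Psph and Wars.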

How the data were processed

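RNA-seq and ChIP-seq values were used as deposited. RNA-seq reads had been trimmed (TrimGalore, PRINSEQ) and aligned with STAR by the authors, who deposited raw HTSeq counts per gene. The libraries were directional, and the strand setting of the counting is not given in the sources used here. ChIP-seq reads had been aligned to mm9 with Bowtie 1.1.2 and freed of duplicates by the authors. MACS2 and IDR over the replicates of a ChIP then gave the deposited peak lists, which hold positions without a score, and DiffBind the deposited coverage (signal) over consensus peaks, normalised between libraries. Input libraries were not used here.

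The 10 genes and the other lists were chosen with earlier results of these data known. Genes that exceeded 1 CPM in 3 or more libraries were tested with edgeR 4.0.16 in R 4.3.3, by its two-sided quasi-likelihood test after TMM scaling, with the 3 groups in 1 model. Benjamini-Hochberg adjustment of p ran over all 14346 genes, and DESeq2 1.42.0 was an alternative. All p values of genes are from these tools, with n = 3 libraries per group. The genes named are the 10, genes of the other lists that passed between KO cells and the EtOH control, and the 3 genes closest in pattern to each of the 3 most variable of the 10. Others are marked.

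Pairing was checked on log2 CPM centred within each group: libraries that share a replicate number correlated at 0.43 to 0.82 in all 9 pairs, which was taken as pairing. Pairs with different numbers ranged from -0.75 to 0.53, so replicates 2 and 3 were not clearly told apart. The labels do not say what a number marks.

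RPKM used the summed length of all exons. In each ChIP library the coverage values were whole multiples (within 0.05) of a single step, taken as 1 read, and 611932 to 1915856 reads lay in consensus peaks. Low coverage therefore rests on few reads. Sequences and motifs were read from mm9 with samtools 1.23.1, near-identical stretches (at least 100 bases) were found with blastn 2.17.0, and other steps used Python 3.11.15, pandas 2.3.3 and matplotlib 3.10.9.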

Additional observations from a re-analysis of the deposited data

Results flagged for a closer look

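Among 32 peaks at or near genes of the pathway, with 4 Zbtb11 libraries each, 2 had a library far from the other 3, where chance gives about 1 in 20. At the *Eif2ak1* peak, replicate 1 (48.9) lay below the others (72.7 to 75.1), and the gap was 0.91 of the whole range. At the *Gcn1l1* peak, replicate 3 (116) lay above the others (78.9 to 85.2), with a gap of 0.83 of the range. Without these libraries the means were 73.9 and 81.9.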

How the results depend on the processing

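The number of genes called rose with the replicate block and without replicate 1, and fell without replicate 2 or 3, and the cause was not tested. Between KO cells and the EtOH control, 129 genes passed without the block, 323 with it, 13 to 212 when a replicate number was left out, and 322 with the block and without replicate 1. Of the 10 genes, 0 passed without and 1 with the block, and of the 89 others 0 without, 1 with it, 0 to 1 when a replicate number was left out, and 1 with the block and without replicate 1. Between KO cells and the 4OHT control, 925 genes passed, against 1469 by DESeq2, 570 with only the 2 groups in the model, 5010 with the block, 82 to 2645 when a replicate number was left out and 4174 with the block and without replicate 1. The 10 genes gave 0, 4 with the block and 5 with the block and without replicate 1. The 89 others gave 4, 2 with only 2 groups, 35 with the block, 0 to 19 when a replicate number was left out and 31 with the block and without replicate 1. In the 4OHT control compared with the EtOH control, 583 genes passed, against 1187 by DESeq2, 171 with only 2 groups, 4816 with the block, 13 to 2420 when a replicate number was left out and 3914 with the block and without replicate 1. The 10 genes gave 0, 5 with the block, 0 to 2 when a replicate number was left out and 6 with the block and without replicate 1. The 89 others gave 3, 9 by DESeq2, 0 with only 2 groups, 37 with the block, 0 to 22 when a replicate number was left out and 33 with the block and without replicate 1. The block changed no other call among the 10 genes than those given in the report. On leaving out a number, the highest counts were those without replicate 1 and the lowest those without replicate 2 in all 3 comparisons.

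Of 90 values of the 10 genes over the alternatives in each comparison, 82, 79 and 76 kept their direction and side of the threshold. Reversals were small and none was called. For KO minus EtOH control, *Ddit3* ran from -0.049 without replicate 2 to 0.26 without replicate 1, with -0.024 without replicate 3. *Phgdh* ran from -0.060 without replicate 3 to 0.081 without replicate 2, with -0.0094 without replicate 1 and -0.011 when the block was added to that. With library sizes in place of TMM, *Asns* was at 0.00043 and *Psat1* at 0.0066. For KO minus 4OHT control, *Ddit3* ran from -0.42 to 0.13, and was at 0.13 with the block and without replicate 1. For 4OHT control minus EtOH control, *Mthfd2* ran from -0.12 without replicate 3 to 0.061 without replicate 2. The alternatives with the block and without replicate 2 or 3 were chosen after seeing the data.

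Promoter peaks were found at 0 of the 10 genes, 2 within 5 kb, 2 in the FLAG-Zbtb11 list and 1 over every transcript start. From 250 bases upstream to 50 downstream, TGATGCAA was in 1, TGATGNAA in 3 and CCGGAAG in 2 of the 10. In RefSeq promoters the 3 motifs were in 1, 3 and 3 of the 10. There CCGGAAG was in *Ddit3*, *Psat1* and *Shmt2*, against 8.86% of RefSeq promoters.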
